A study of Mus musculus with 2 samples.

Results

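Glycosyltransferases build the sugar chains of the T cell surface, and the ones described here add the sialic acids, fucose, galactose, N-acetylglucosamine and N-acetylgalactosamine of these chains. They were taken as all probe sets annotated to exactly 1 gene symbol that begins with St3gal, St6gal, St8sia, B4galt, B3gnt, B3galt, Galnt, Mgat, Fut or Gcnt followed by a number. This gave 171 probe sets of 82 genes, out of 34945 probe sets of 18193 genes with a single symbol. The rule reads only the symbol, although earlier results of these data were known when the family was chosen.

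CD4+ T cells of DEREG mice were measured, a strain in which the Foxp3 promoter drives green fluorescent protein (GFP). After negative selection of CD4+ cells, the FoxP3-positive cells that carry GFP (GFP+) and the FoxP3-negative cells that lack it (GFPneg) were sorted by flow cytometry, and total RNA of each population was hybridised to 1 Affymetrix mouse expression array. Both populations carry the same transgene, and the separation is only as good as GFP reports Foxp3. The sources used here state neither the organ nor the age, number or treatment of the animals. There are no replicates, so no test was run, and each difference is between these 2 arrays. In such sorted populations, fewer cells that express a gene and less of its RNA per cell cannot be told apart.

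On T cells, sialic acid and fucose complete the ends of chains that start on asparagine (N-glycans), on serine or threonine (mucin-type O-glycans) or on ceramide (glycolipids). The chains and their endings form ligands for selectins, Siglecs and galectins, which steer homing, inhibition and survival of the cells. Most steps have several isoenzymes, so that a linkage depends on which of them a cell expresses.

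Values are signals on the linear scale of the MAS5 software, and a difference is the log2 signal of GFP+ cells less that of GFPneg cells. A floor of 59.13, the 90th percentile of the signals of 137 probe sets of genes restricted to other tissues, marks signals that cannot be told from background, and lower signals were set to this value ahead of the log2 step. The probe set brightest on average over both arrays, on the log2 scale, represents its gene. As a yardstick without animals or sorts in it, log2 differences within genes that have several probe sets had a standard deviation of 0.40 (8389 probe sets of 3286 genes), against 0.585 for a 1.5-fold difference. The labels were checked with Foxp3, whose signal was 504.4 in GFP+ and 173.2 in GFPneg cells. All 5 regulatory T cell markers had the higher signal in GFP+ cells, from 1.71-fold for Il2ra to 2.91-fold for Foxp3. All 5, Foxp3 included, were also above the floor in GFPneg cells. Among them were Ikzf2 (4435.4 in GFP+ and 2250.3 in GFPneg cells) and Ctla4 (2419.6 in GFP+ and 1244.3 in GFPneg cells). The 5 CD4 T cell markers with a probe set passed the floor on both arrays, 4 lower and 1 higher in GFP+ cells, and 3 lay within 1.5-fold. Cd4 (256.5 in GFP+ and 415.1 in GFPneg cells) and Cd3e (540.9 in GFP+ and 862.2 in GFPneg cells) were 1.62-fold and 1.59-fold lower. Of the B cell markers 2 of 8 were above the floor on either array, of the myeloid and dendritic markers 4 of 11, of the CD8 T and NK markers 3 of 5 and of the erythroid and platelet markers 2 of 5. Their summed signals were 431.9 in GFP+ and 319.8 in GFPneg cells for the B cell list, 367.7 in GFP+ and 422.5 in GFPneg cells for the myeloid list, 921.8 in GFP+ and 1447.3 in GFPneg cells for the CD8 T and NK list and 155.6 in GFP+ and 242.3 in GFPneg cells for the erythroid list. Of these markers of other cells, those above the floor on both arrays were Cd79b (221.9 in GFP+ and 70.8 in GFPneg cells), Adgre1 (94.3 in GFP+ and 79.1 in GFPneg cells), Cd8b1 (100.4 in GFP+ and 115.2 in GFPneg cells), Nkg7 (723.7 in GFP+ and 1221.7 in GFPneg cells) and Itga2b (96.1 in GFP+ and 102.0 in GFPneg cells). The markers Cd79a, Pax5, Lyz2, Cd14 and Cd8a were under it on both, and the part of other cells in the results was not tested. The 3′ to 5′ signal ratio of Actb, which is higher in degraded or incompletely copied RNA, was 5.30 in GFP+ and 3.57 in GFPneg cells. That of Gapdh was 9.27 in GFP+ and 6.24 in GFPneg cells. The part of this imbalance in the results was not tested either.

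Of the 82 genes, 51 had a representative signal above the floor on at least 1 array and 36 on both, and 31 were under it on both. The differences were small. At 1.5-fold, 7 of the 51 were higher in GFP+ cells, against a background of 9.33% of all 10636 genes that passed it on either, and 5 were lower, against a background of 8.0%. At 2-fold, 0 of the 51 were higher (background 1.90%) and 1, B4galt3, was lower (background 1.81%). The 15 genes above the floor on a single array differ by construction. Among the 36 that passed it on both, 16 had the higher signal in GFP+ cells and 20 the lower, and 26 lay within 1.5-fold. Their median was -0.16, against -0.04 over all 8371 genes that passed it on both, of which 3825 were higher and 4543 lower. Of those 36, 7 were at least 1.5-fold higher (background 7.44%) and 3 lower (background 7.71%), and at 2-fold the counts were 0 higher (background 1.51%) and 0 lower (background 1.47%).

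Read by probe set, 81 of the 171 were above the floor on at least 1 array. At 2-fold, 2 of the 81 were higher (background 2.29%) and 4 lower (background 1.86%), and at 1.5-fold, 12 were higher (background 10.7%) and 11 lower (background 8.60%). Of the 52 above it on both arrays, 10 were at least 1.5-fold higher (background 8.53%) and 5 lower (background 8.09%).

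The 7 genes at least 1.5-fold higher were St8sia6, B3gnt5, Mgat4a, St3gal2, B4galt7, St6galnac4 and Gcnt1, and the 5 lower ones were B4galt3, Galnt7, Fut7, Mgat4b and Fut11. Sialyltransferases, which were 17 of the 51, made up 3 of the 7 and 0 of the 5. By probe set they were 27 of the 81, and made up 7 of the 12 at least 1.5-fold higher and 3 of the 11 lower. The 7 belonged to St8sia6, St3gal2 and St6galnac4 only, and the 3 to St8sia1, St3gal1 and St3gal6. Of 22 genes with more than 1 probe set above the floor on at least 1 array, 15 had probe sets in both directions, 3 had only higher and 4 only lower ones. In St8sia6, St3gal2 and St6galnac4, all such probe sets were at least 1.5-fold higher, and in 0 genes were all at least 1.5-fold lower. The same shares were not computed over all genes with several probe sets, so these counts are descriptions only.

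**Figure D1:**
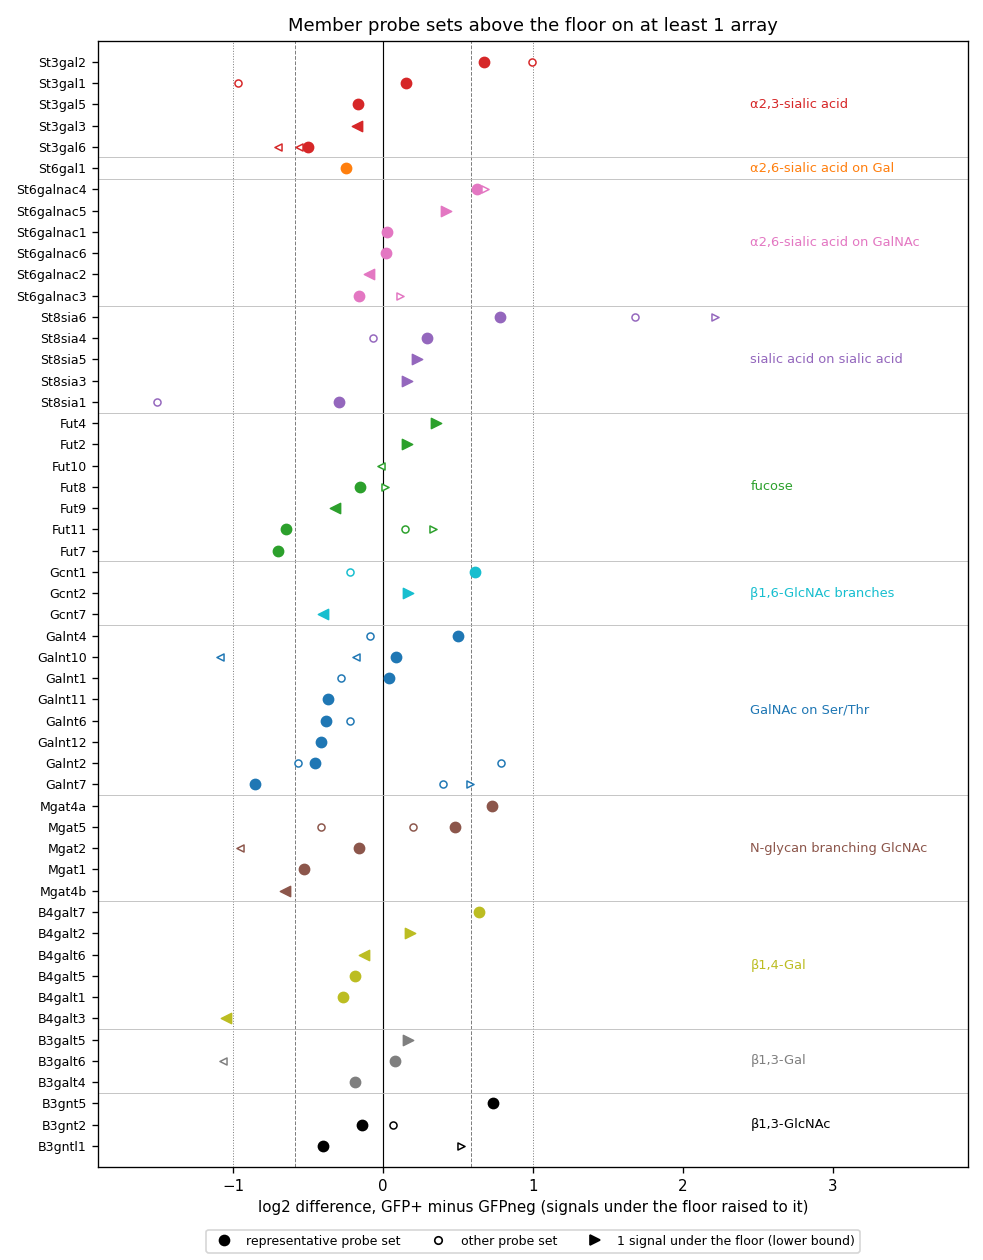
Log2 differences, GFP+ minus GFPneg (horizontal axis), of the 81 member probe sets above the floor on at least 1 array, by gene and linkage. Filled symbols are representative probe sets, open ones other probe sets, triangles lower bounds with 1 signal under the floor; dashed lines mark 1.5-fold and dotted lines 2-fold. The open symbols of St8sia6 lie farthest to the right and that of St8sia1 farthest to the left.

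The enzymes of the α2,8 linkage, which add sialic acid to another sialic acid, showed the largest differences of the whole family when all probe sets are read. St8sia6 makes short sialic acid chains, mainly on O-glycans, and in mouse such chains are ligands of the inhibitory receptor Siglec-E. Its gene lies on chromosome 2 (GRCm38.p6, chr2:13651018-13794734). The representative probe set had a signal of 609.5 in GFP+ and 355.3 in GFPneg cells, or 1.72-fold higher. A further probe set had signals of 240.8 in GFP+ and 75.0 in GFPneg cells, or 3.21-fold higher. The last one had 274.6 in GFP+ and 49.8, under the floor, in GFPneg cells, which makes it at least 4.64-fold higher. All 3 were higher in GFP+ cells, by unequal amounts.

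St8sia1 went the other way. It makes the ganglioside GD3 from GM3 and lies at chr6:142821541-142989528. Its representative probe set had signals of 246.1 in GFP+ and 302.3 in GFPneg cells, a difference of -0.30, and a further one had 71.8 in GFP+ and 204.0 in GFPneg cells, or 2.84-fold lower. St8sia4, the polysialic acid synthase of immune cells, had signals of 1244.3 in GFP+ and 1015.5 in GFPneg cells, with a second probe set at 162.5 in GFP+ and 170.2 in GFPneg cells, so its probe sets differed little and in opposite directions. St8sia3 and St8sia5, which act on glycolipids in neural tissue, passed the floor on the GFP+ array only, at 66.0 and 69.2, and St8sia2 was under it on both.

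The α2,3-sialyltransferases split by enzyme. St3gal2 caps galactose of core 1 O-glycans and of gangliosides. Its representative probe set had a signal of 180.3 in GFP+ and 113.1 in GFPneg cells, or 1.59-fold higher, and a second one had 130.0 in GFP+ and 65.3 in GFPneg cells, or 1.99-fold higher. A dim further probe set, under the floor on both arrays, read 18.1 in GFP+ and 41.2 in GFPneg cells, and with all 3 averaged the St3gal2 difference was 0.16.

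St3gal6 caps N-acetyllactosamine and contributes to selectin ligands. All 3 of its probe sets that passed the floor were lower, with signals of 71.1 in GFP+ and 100.7 in GFPneg cells for the representative one, 1.42-fold lower. The others were at least 1.63-fold lower (58.6 in GFP+ and 96.1 in GFPneg cells) and at least 1.48-fold lower (45.1 in GFP+ and 87.4 in GFPneg cells). St3gal1, which caps core 1 O-glycans and thereby competes with core 2 branching, had probe sets that disagreed by more than 1 log2 unit. The representative read 116.0 in GFP+ and 104.2 in GFPneg cells, and the other 60.9 in GFP+ and 119.1 in GFPneg cells, or 1.96-fold lower. St3gal5, the GM3 synthase, had signals of 143.4 in GFP+ and 161.2 in GFPneg cells, St3gal3 was above the floor on the GFPneg array only (38.4 in GFP+ and 66.7 in GFPneg cells), and St3gal4 was under it on both.

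St6gal1 makes the α2,6-sialylated N-acetyllactosamine that CD22 binds. Its signal was 7016.5 in GFP+ and 8318.6 in GFPneg cells, 1.19-fold lower, and the other enzyme of this linkage, St6gal2, was under the floor. The difference became 0.41 when a further St6gal1 probe set, under the floor on both arrays, was averaged in. Among the enzymes that add α2,6-linked sialic acid to N-acetylgalactosamine, St6galnac4, which disialylates core 1 O-glycans, had a signal of 113.8 in GFP+ and 73.8 in GFPneg cells, 1.54-fold higher. Its second probe set was at least 1.60-fold higher (94.5 in GFP+ and 56.4 in GFPneg cells). The St6galnac4 difference was 0.53 after quantile normalization and 0.58 after loess, both under 1.5-fold. St6galnac6, which lies 13 bases from St6galnac4 on chromosome 2, differed by 0.02 (91.1 in GFP+ and 89.9 in GFPneg cells), and St6galnac5 was at least 1.34-fold higher (79.0 in GFP+ and 44.3 in GFPneg cells). St6galnac1 and St6galnac3 differed by 0.03 and -0.16, all with signals under 100, and St6galnac2 was above the floor only in GFPneg cells, at 63.2.

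Over all 20 sialyltransferases, 12 were above the floor on both arrays, of which 7 were higher and 5 lower. Their median was 0.02, and it was below 0 with the floor doubled, after quantile normalization and after loess. The other 24 family members with both signals above it had a median of -0.18, of which 9 were higher and 15 lower. The medians of the sialyltransferases and of the other members are descriptions, and the difference between them was not tested.

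**Figure D2:**
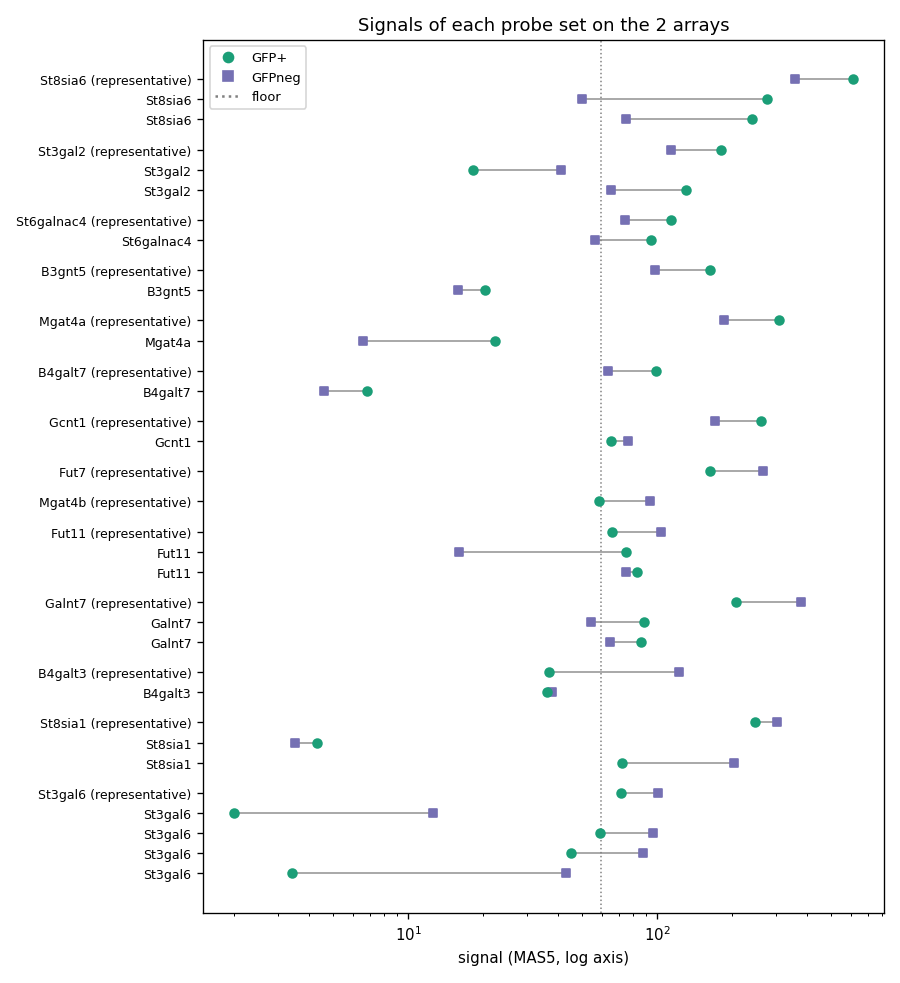
Signals of every probe set of 14 genes (horizontal log axis, MAS5 units): green circles are GFP+, violet squares GFPneg, and the dotted line is the floor of 59.13. Circles lie to the right of squares for all 3 probe sets of St8sia6 and to the left for all 3 probe sets of St3gal6 above the floor; Galnt7 and Fut11 have probe sets in both directions.

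The start regions of some family members are shown for comparison. The windows run from 250 bases before to 50 bases after an annotated start, from RefSeq on build GRCm38.p6, and were available for 60 of the 82 genes. Shown are St8sia6 (chr2:13793471-13793770, minus strand) and St6galnac4 (chr2:32586828-32587127, plus strand), in which all probe sets above the floor were at least 1.5-fold higher, and one of the windows of Fut7 (chr2:25422992-25423291, plus strand), which was lower in GFP+ cells. For St3gal2, whose probe sets above the floor were also all at least 1.5-fold higher, no window was available. Capitals mark the forkhead-type motif TGTTTNC and the GC box GGGCGG, each searched on both strands.
St8sia6: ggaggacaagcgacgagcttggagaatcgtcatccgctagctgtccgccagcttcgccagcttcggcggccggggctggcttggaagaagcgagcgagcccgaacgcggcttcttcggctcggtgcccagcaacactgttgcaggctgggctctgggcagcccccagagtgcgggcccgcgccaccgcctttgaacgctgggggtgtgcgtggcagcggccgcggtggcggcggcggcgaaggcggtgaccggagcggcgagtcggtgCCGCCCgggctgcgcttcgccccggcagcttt
St6galnac4: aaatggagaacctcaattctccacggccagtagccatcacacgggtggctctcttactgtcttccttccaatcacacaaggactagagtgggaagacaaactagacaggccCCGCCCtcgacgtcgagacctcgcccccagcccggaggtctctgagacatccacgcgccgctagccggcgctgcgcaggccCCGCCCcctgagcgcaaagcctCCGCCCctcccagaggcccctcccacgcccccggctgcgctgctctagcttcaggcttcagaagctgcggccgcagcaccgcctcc
Fut7: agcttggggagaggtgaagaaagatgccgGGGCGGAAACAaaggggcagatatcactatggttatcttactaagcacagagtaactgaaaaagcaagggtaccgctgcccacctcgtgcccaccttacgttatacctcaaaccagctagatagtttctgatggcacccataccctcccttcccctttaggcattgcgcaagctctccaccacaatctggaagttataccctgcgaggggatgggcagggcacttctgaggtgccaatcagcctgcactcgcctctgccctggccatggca
TGTTTNC was found once in the Fut7 window, where it overlaps the single GC box, and 0 times in the other windows. GGGCGG was found once in the St8sia6 window and 3 times in the St6galnac4 window. Of all 32851 windows, 20.5% held TGTTTNC and 35.7% GGGCGG, and of the 85 windows of the glycosyltransferases, 20.0% and 54.1% did. The STAT-type motif TTCNNNGAA was in 5.88% of the windows of the glycosyltransferases and 8.3% of all windows, and in none of the windows shown. A second Fut7 window, not shown (chr2:25423444-25423743, plus strand), held 0 matches of any of these motifs and 1 CG. The St8sia6 window had 39 CG dinucleotides and the St6galnac4 window 23, against 8 in that of Fut7 and a median of 7.0 over all windows. The median over the windows of the glycosyltransferases was also above 7.0. Windows of the other higher genes had 9 (B3gnt5), 8 (B4galt7), 2 and 35 (Mgat4a) and 3, 16 and 2 (Gcnt1). Those of other lower genes had 25 (Galnt7), 19 (B4galt3) and 15 (Fut11). High counts thus occurred in both directions, and a relation of CG count to direction was not tested. A match is a match of letters and does not show binding.

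By their representatives, 3 of 3 fucosyltransferases with both signals above the floor were lower in GFP+ cells, against 4543 of 8371 over all genes, and with probe sets averaged Fut7 alone of the 3 was lower. Fut7 adds the α1,3-linked fucose of sialyl Lewis x, the selectin ligand of activated T cells, and lies at chr2:25422351-25426374. Its only probe set had a signal of 162.9 in GFP+ and 265.5 in GFPneg cells, or 1.63-fold lower. Fut11, a more distant family member, was 1.57-fold lower by its representative (65.8 in GFP+ and 103.2 in GFPneg cells), but its other probe sets were higher (83.1 in GFP+ and 75.1 in GFPneg cells, and 74.5 in GFP+ and 16.0 in GFPneg cells), and with all of them averaged the difference was 0.33. Fut8, which adds core fucose to N-glycans, had signals of 273.2 in GFP+ and 304.2 in GFPneg cells, a difference of -0.16, which was 0.26 with probe sets averaged. Fut2 and Fut4 passed the floor only in GFP+ cells, at 66.0 and 75.5, and Fut9 only in GFPneg cells, at 73.8. Fut1, Fut10 and Fut4-ps1 were under the floor by their representatives.

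Gcnt1, which makes the core 2 branch on O-glycans that carries sialyl Lewis x, had a higher signal in GFP+ cells. Its representative read 260.4 in GFP+ and 170.1 in GFPneg cells, 1.53-fold higher. A dimmer probe set read 65.4 in GFP+ and 76.3 in GFPneg cells, and the mean of both gave a difference of 0.20. Fut7 and Gcnt1, which act on the same selectin ligand, differed in opposite directions, while the carrier gene Selplg, which encodes the P-selectin ligand PSGL-1, had signals of 3173.3 in GFP+ and 3087.2 in GFPneg cells. Gcnt2, which makes I branches, was above the floor in GFP+ cells only (66.4 in GFP+ and 37.4 in GFPneg cells), Gcnt7 in GFPneg cells only (19.5 in GFP+ and 78.1 in GFPneg cells), and Gcnt3 in neither.

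The Galnt enzymes, which start mucin-type O-glycans by adding N-acetylgalactosamine to serine or threonine, were lower in GFP+ cells in 5 of the 8 genes above the floor, against 4543 of 8371 over all genes, with a median of -0.38, and 7 of the 8 lay within 1.5-fold. This median was -0.11 with probe sets averaged and 0.09 without a floor. Galnt7, which prefers peptides that already carry N-acetylgalactosamine, was 1.81-fold lower by its representative, with 207.5 in GFP+ and 376.2 in GFPneg cells. Its other probe sets were higher, at 85.6 in GFP+ and 64.8 in GFPneg cells and at 88.4 in GFP+ and 54.1 in GFPneg cells, and the average of all 3 gave 0.08. Galnt2 also had probe sets in opposite directions, with 273.6 in GFP+ and 374.4 in GFPneg cells for the representative, 73.9 in GFP+ and 109.7 in GFPneg cells for a dimmer one and 202.6 in GFP+ and 117.6 in GFPneg cells for the one that was higher. Galnt1 had almost equal signals of 1939.9 in GFP+ and 1889.0 in GFPneg cells, with a second probe set at 336.1 in GFP+ and 409.0 in GFPneg cells. Galnt6 (651.3 in GFP+ and 850.1 in GFPneg cells), Galnt12 (492.3 in GFP+ and 655.9 in GFPneg cells) and Galnt11 (158.2 in GFP+ and 204.4 in GFPneg cells) were lower by 1.31-fold, 1.33-fold and 1.29-fold, and Galnt4 was 1.41-fold higher by its representative (124.7 in GFP+ and 88.2 in GFPneg cells). A second Galnt4 probe set was lower (99.7 in GFP+ and 106.1 in GFPneg cells), and the Galnt4 difference was -0.22 with probe sets averaged and 0.08 with the floor doubled. Galnt10 differed by 0.08 by its representative, but a second probe set was at least 2.12-fold lower (20.9 in GFP+ and 125.6 in GFPneg cells). The other 10 enzymes of this group, Galnt3, Galnt5, Galnt9, Galnt13, Galnt14, Galnt15, Galnt16, Galnt18, Galntl5 and Galntl6, were under the floor on both arrays.

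The N-glycan branching enzymes went both ways. Mgat1 adds the first N-acetylglucosamine that allows complex chains, and Mgat2 the next one. Mgat1 was 1.44-fold lower, with 316.9 in GFP+ and 456.9 in GFPneg cells, and Mgat2 had signals of 348.3 in GFP+ and 390.4 in GFPneg cells, with a second probe set at least 1.93-fold lower (54.2 in GFP+ and 114.4 in GFPneg cells). Mgat4a and Mgat4b add the same β1,4-linked branch and differed in opposite directions. Mgat4a read 307.1 in GFP+ and 185.6 in GFPneg cells, 1.65-fold higher, and its difference was 0.48 when a probe set under the floor on both arrays was averaged in. Mgat4b was at least 1.58-fold lower, with 58.4, just under the floor, in GFP+ and 93.3 in GFPneg cells. Mgat5, which makes the β1,6-linked branch favoured by galectins, was 1.40-fold higher by its representative (303.1 in GFP+ and 217.2 in GFPneg cells), with further probe sets at 121.7 in GFP+ and 105.8 in GFPneg cells and at 62.3 in GFP+ and 83.0 in GFPneg cells. Mgat3, which adds the bisecting N-acetylglucosamine, and Mgat4c, Mgat4d, Mgat4e and Mgat5b were under the floor.

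The galactosyltransferases held the only gene past 2-fold by its representative. B4galt3, which adds β1,4-linked galactose to N-acetylglucosamine, had a signal of 36.6, under the floor, in GFP+ and 122.3 in GFPneg cells, or at least 2.07-fold lower. Its other probe set read 35.9 in GFP+ and 37.6 in GFPneg cells. The B4galt3 difference was -0.05 with the floor doubled and -0.20 with probe sets averaged. B4galt1, the enzyme of the same step with both signals above the floor, read 569.4 in GFP+ and 684.9 in GFPneg cells, and B4galt5, a lactosylceramide synthase, 188.4 in GFP+ and 214.7 in GFPneg cells. B4galt7, which adds galactose to xylose in the linker of glycosaminoglycans, was 1.56-fold higher (98.5 in GFP+ and 63.2 in GFPneg cells) by a probe set whose suffix marks possible matches to several transcripts. The B4galt7 difference was 0.52 after quantile normalization. B4galt2 passed the floor in GFP+ cells only (67.0 in GFP+ and 23.9 in GFPneg cells), B4galt6 in GFPneg cells only (39.9 in GFP+ and 64.7 in GFPneg cells), and B4galt4 in neither.

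Among the β1,3 enzymes, B3gnt5, which starts lacto-series glycolipids, was 1.66-fold higher, with 162.5 in GFP+ and 97.7 in GFPneg cells. With the floor doubled the B3gnt5 difference was 0.46. B3gnt2, the main enzyme of poly-N-acetyllactosamine extension, had closely similar signals on both of its probe sets, 441.0 in GFP+ and 487.2 in GFPneg cells and 443.9 in GFP+ and 424.9 in GFPneg cells. B3gntl1, a gene named for its similarity to this family, had probe sets in opposite directions (80.2 in GFP+ and 105.9 in GFPneg cells, and 84.6 in GFP+ and 19.7 in GFPneg cells). B3galt4, which makes the ganglioside GM1, read 219.2 in GFP+ and 249.8 in GFPneg cells, and B3galt6, which adds galactose to the glycosaminoglycan linker, 86.3 in GFP+ and 81.7 in GFPneg cells, with a second probe set at least 2.10-fold lower (31.1 in GFP+ and 124.3 in GFPneg cells). B3galt5 was above the floor in GFP+ cells only (66.4 in GFP+ and 24.3 in GFPneg cells). B3galt1, B3galt2, B3gnt3, B3gnt4, B3gnt6, B3gnt7, B3gnt8 and B3gnt9 were under the floor on both arrays.

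**Figure D3:**
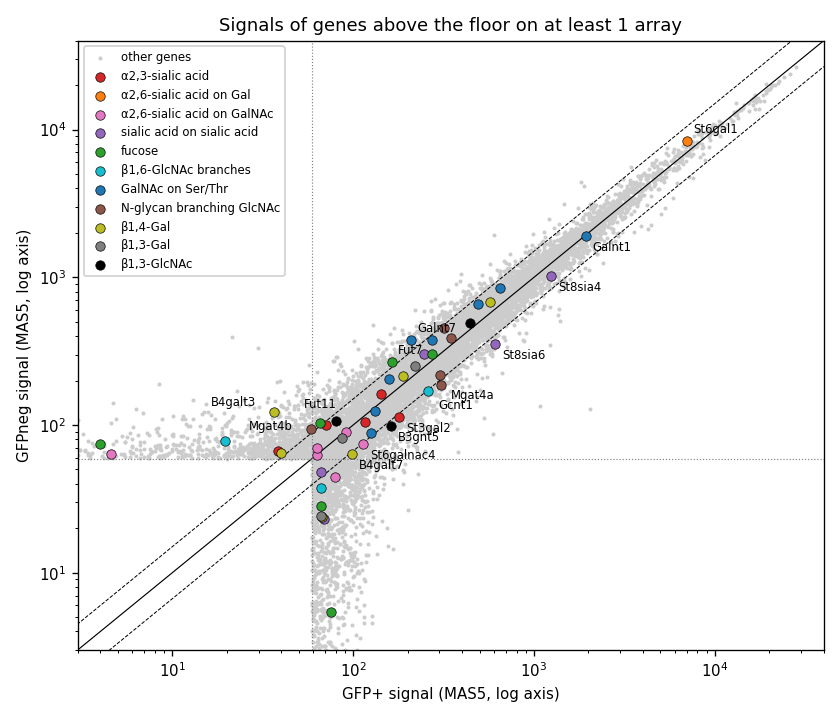
GFP+ signal (horizontal log axis) against GFPneg signal (vertical log axis), in MAS5 units, for the 10636 genes that passed the floor on either array. Coloured points are the 51 glycosyltransferase genes by linkage; the solid line marks equality, dashed lines 1.5-fold and dotted lines the floor. Points are drawn at the signals as measured. With signals under the floor raised to it, 7 of the 51 would lie at or below the lower dashed line. As drawn, further genes with a signal under the floor lie outside the dashed lines, such as Fut4 (75.5 in GFP+ and 5.4 in GFPneg cells) and Fut9 (4.0 in GFP+ and 73.8 in GFPneg cells). Of the 36 with both signals above the floor, 26 lie between the dashed lines.

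The other genes of the same pathways numbered 100, of which 92 had a probe set of their own and 79 were above the floor on at least 1 array. Of these 79, 5 were higher and 11 lower by 1.5-fold or more, against the background of 9.33% and 8.0%. The split was 7 higher and 6 lower with probe sets averaged, and 2 higher and 8 lower with the floor doubled. Among the 78 with both signals above the floor, 29 were higher and 49 lower, against 3825 higher and 4543 lower of 8371 over all genes. The median of the 78 was -0.11, against -0.04 over all genes.

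Nucleotide sugar genes included some of the larger differences. Gne, the rate-limiting enzyme of sialic acid synthesis, had a signal of 217.6 in GFP+ and 415.2 in GFPneg cells, 1.91-fold lower, with a second probe set at 185.8 in GFP+ and 244.0 in GFPneg cells. The later enzymes of the same route, Nanp (284.6 in GFP+ and 365.9 in GFPneg cells), Nans (1034.9 in GFP+ and 1075.5 in GFPneg cells) and Cmas (757.1 in GFP+ and 1119.7 in GFPneg cells), were all lower by less than 1.5-fold, as was Slc35a1, which carries CMP-sialic acid into the Golgi (635.6 in GFP+ and 713.6 in GFPneg cells). The differences of Nanp (-0.36), Nans (-0.06) and Slc35a1 (-0.17) were smaller than the yardstick of 0.40. Of the 14 nucleotide sugar synthesis genes with both signals above the floor, 9 were lower and 5 higher, against 4543 lower of 8371 over all genes. In the hexosamine route, Gnpnat1, Pgm3 and Uap1 were higher by less than 1.5-fold by their representatives, and Gfpt1 was lower by less than 1.5-fold. Gfpt2, an enzyme that feeds the hexosamine route, was at least 2.19-fold higher (129.2 in GFP+ and 31.7 in GFPneg cells), and Gmds, which makes GDP-fucose, was 1.52-fold higher (480.3 in GFP+ and 316.8 in GFPneg cells). Of the transporters, Slc35a5 was 2.05-fold higher by its representative (130.5 in GFP+ and 63.7 in GFPneg cells), but its 4 other probe sets had signals of at most 71.0, Slc35b4 was 1.52-fold higher (122.0 in GFP+ and 80.2 in GFPneg cells) with a second probe set lower (91.0 in GFP+ and 101.0 in GFPneg cells), and Slc35a2, the UDP-galactose carrier, 1.61-fold lower.

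In N-glycan assembly and trimming, 18 of 25 genes with both signals above the floor were lower and 7 higher by their representatives, against 4543 lower of 8371 over all genes. The median of the 25 was -0.15, against -0.04 over all genes, and 21 were within 1.5-fold. Dpagt1, which starts the lipid-linked precursor, was 1.69-fold higher (207.7 in GFP+ and 123.1 in GFPneg cells), and Man2a2 (272.6 in GFP+ and 454.1 in GFPneg cells), Alg14 (106.8 in GFP+ and 169.6 in GFPneg cells) and Alg2 (90.2 in GFP+ and 139.1 in GFPneg cells) were 1.67-fold, 1.59-fold and 1.54-fold lower by their representatives. A second Alg14 probe set was 1.43-fold higher (98.0 in GFP+ and 68.7 in GFPneg cells), and a second Man2a2 probe set at least 1.49-fold higher (88.0 in GFP+ and 7.0 in GFPneg cells). C1galt1 and its chaperone gene C1galt1c1, which make core 1 O-glycans, differed by 0.16 and 0.01, and B4galnt4 was 1.65-fold lower. Of the genes acting on O-fucose and Notch, Poglut1 was 1.55-fold lower, and Mfng and Lfng differed by 0.20 and -0.02. Of the sulfotransferases 1 of 6 was above the floor, Chst10, with signals of 124.7 in GFP+ and 107.5 in GFPneg cells. The hydrolases Hexa and Neu1, a sialidase, were 1.83-fold and 1.58-fold lower.

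Among carriers and readers of glycans, Cd22, the receptor for the product of St6gal1, was 2.39-fold lower (98.3 in GFP+ and 235.1 in GFPneg cells) and Cd24a 1.80-fold lower. Cd22 is also a B cell gene, and the B cell marker Cd79b was 3.13-fold higher in GFP+ cells (221.9 in GFP+ and 70.8 in GFPneg cells), so these B lineage transcripts differed in opposite directions. The carriers Spn, Ptprc and Cd44 and the galectins Lgals1, Lgals3, Lgals8 and Lgals9 lay within 1.5-fold, between -0.38 for Lgals9 and 0.29 for Ptprc.

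**Figure D4:**
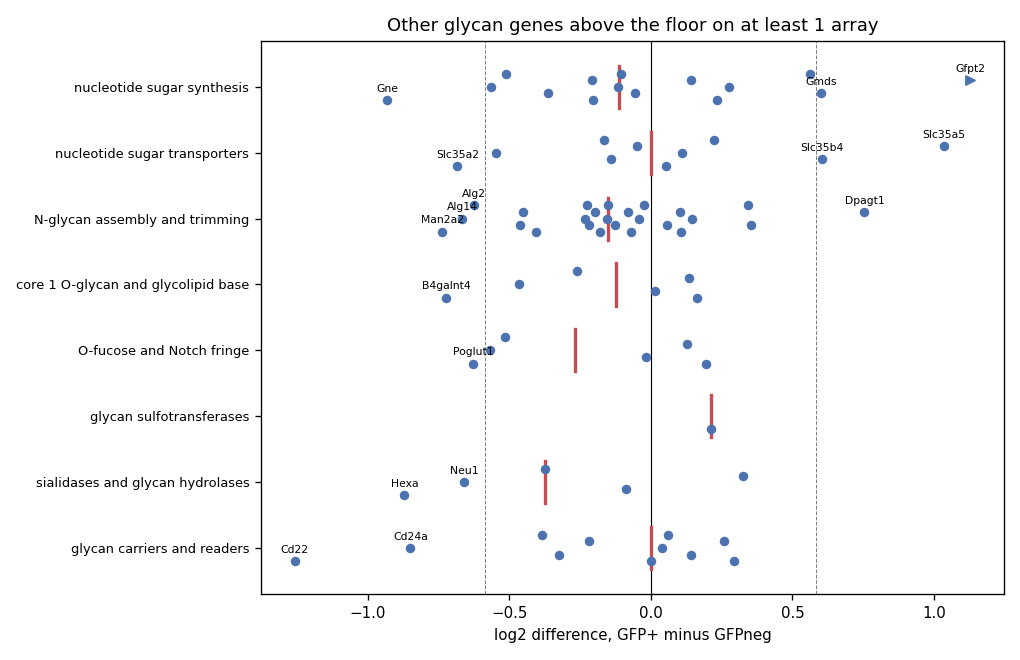
Log2 differences, GFP+ minus GFPneg (horizontal axis), of the 79 other glycan genes that passed the floor on either array, in 8 lists. Dots are genes, the triangle is a lower bound, red bars are medians over genes with both signals above the floor, and dashed lines mark 1.5-fold; genes past them are named. By representative probe sets, 11 named genes lie on the left and 5 on the right; with probe sets averaged the counts were 6 lower and 7 higher.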

How the data were processed

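Intensities were summarised per probe set with MAS5 by the authors, per the submitters' processing notes. Neither its version nor detection calls is stated in the sources used here. Deposited values had been scaled, since the 2% trimmed mean was 150.0 on both arrays, and they were used without further normalization. Per the labels, 6 µg of total RNA were labelled and sort purity exceeded 99%. Samples were grouped by title, with 1 array each.

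Of 45101 probe sets, 34958 had 1 symbol in the platform annotation, 932 several and 9211 none, and 64 were controls. Only single-symbol probe sets were used, which leaves out 1 probe set of a glycosyltransferase. The floor came from 82 of 88 listed genes of other tissues, of which 21 exceeded it by their representative. No test, p-value or standard error is given, because there is 1 array per group, and the number of arrays limits the precision. The steps were tested on simulated data with large differences planted in genes well above the floor, called at 2-fold. That check does not bear on calls at 1.5-fold or on signals near the floor. Named were all members, with values for those past 1.5-fold, the largest differences per linkage and probe sets that disagree by more than 1 log2 unit. The members and lists were chosen with earlier results of these data known. Alternatives were a doubled floor, no floor, quantile normalization, loess (span 0.3), averaged probe sets, no probe sets that can match several transcripts, and 2 other filters. Python 3.11.15, pandas 2.3.3, numpy 2.4.6 and statsmodels 0.14.6 were used.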

Additional observations from a re-analysis of the deposited data

How the results depend on the processing

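No paired analysis was possible because each group holds 1 array. At 2-fold, the count of higher glycosyltransferase genes was 16 without a floor and 1 with probe sets averaged, against 0 as reported, and the count of lower ones was 0 with the floor doubled, 9 without a floor, 0 with probe sets averaged and 0 with both signals required above the floor, against 1. At 1.5-fold, the higher genes numbered 4 with the floor doubled, 28 without a floor and 2 with probe sets averaged, against 7, and the lower genes 2 with the floor doubled, 18 without a floor and 3 with both signals above the floor, against 5. Without a floor all 82 genes enter, and 18.2% of all genes were at least 2-fold higher and 13.3% lower. The other pathway genes past 1.5-fold numbered 10 with the floor doubled, against 16. Their split was 7 higher and 6 lower with probe sets averaged and 6 higher and 8 lower with multi-transcript probe sets left out, against 5 higher and 11 lower. The differences of Fut11 and Galnt7 were 0.3262 and 0.0839 with the log2 signals of probe sets averaged before the floor was applied, opposite in sign to their reported values. St8sia6 (0.78 to 1.64) was moved by quantile normalization, loess and averaging, and Fut7 (-0.72 to -0.70), which has 1 probe set, by quantile normalization and loess, and both stayed past 1.5-fold. The other alternatives left both values as they were and do not bear on them. The family median lay between -0.19 and -0.08 under the 7 alternatives with a floor and at 0.07 without one. Quantile normalization moved the median of all genes by 0.0182 and loess by 0.0242. With 1 array per group and detection calls not used here, signals close to the floor have no firm order.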

Other observations

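A list of genes of glycosaminoglycan chains, the long sulfated sugars of proteoglycans, held several genes past 2-fold. The list was written after the values of the glycosyltransferases had been seen. Of its 33 genes with a probe set, 21 were above the floor on at least 1 array. At 2-fold, 5 of the 21 were lower in GFP+ cells (background 1.81%) and 0 higher (background 1.90%). Of these 5, 4 passed the floor through the GFPneg array alone, so the count is a description only. It was 1 of 15 with both signals required above the floor (background 1.47%), 1 with the floor doubled (background 0.947%) and 3 with probe sets averaged (background 2.19%). Extl2, which acts at the start of heparan sulfate chains, had signals of 58.8 in GFP+ and 191.1 in GFPneg cells, or at least 3.23-fold lower, but a second probe set was higher (123.6 in GFP+ and 90.1 in GFPneg cells). Chpf, a chondroitin polymerising factor, was at least 3.10-fold lower (49.1 in GFP+ and 183.4 in GFPneg cells). Chst11, a chondroitin 4-O-sulfotransferase, was at least 2.57-fold lower (52.9 in GFP+ and 152.0 in GFPneg cells), with a second probe set at 69.1 in GFP+ and 46.3 in GFPneg cells. Hs6st1, a heparan sulfate 6-O-sulfotransferase, was at least 2.44-fold lower (37.1 in GFP+ and 144.5 in GFPneg cells), and Ext2, a subunit of the heparan sulfate polymerase, 2.19-fold lower (163.1 in GFP+ and 356.7 in GFPneg cells), with a dimmer probe set higher (75.8 in GFP+ and 37.1 in GFPneg cells). Between 1.5-fold and 2-fold, Extl1 was 1.77-fold higher (116.2 in GFP+ and 65.7 in GFPneg cells), Xylt2 1.62-fold higher (98.5 in GFP+ and 60.9 in GFPneg cells), Ext1 1.69-fold lower (139.3 in GFP+ and 235.0 in GFPneg cells) and Ndst2 1.59-fold lower (94.9 in GFP+ and 151.1 in GFPneg cells).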
